A study of Mus musculus with 15 samples.

Results

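Primary chondrocytes treated with SB202190 were compared with primary chondrocytes treated with trichostatin A (TSA), over all genes measured. The comparison rests on 6 of the 15 arrays of the series, 3 with SB202190 and 3 with TSA, and was chosen by the treatment given in the array titles, with no use of any measured value. The 3 arrays of the vehicle DMSO served to sort the genes into those moved the same way by both inhibitors and those moved in opposite ways. The remaining 6 arrays, treated with LY294002 or UO126, were used in the estimate of the spread and in the choice of probe sets.

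All groups shared 1 source. Tibia, femur and humerus of CD1 mice were dissected 15.5 days into embryonic development, and their cells were plated as monolayers in medium with ascorbic acid and β-glycerophosphate. SB202190 was given at 10 µM for 24 hours, TSA for 24 hours, and DMSO for the same time. The unit of the TSA dose could not be read from the labels, so the inhibitors were compared at 1 dose each, which were not matched. No group carried a genetic change. Monolayer cultures of embryonic long bones can hold cells other than chondrocytes, and in such bulk RNA fewer cells of a type and less RNA per cell cannot be told apart.

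Both inhibitors act on pathways known in cartilage. The p38 kinases are activated by the upstream kinases MKK3 and MKK6, signal through kinases such as MK2 and through transcription factors such as ATF2 and MEF2C, and have been tied to chondrocyte differentiation and to the response to stress. SB202190 is usually described as an inhibitor of p38α and p38β, whereas the series description places it among inhibitors of MEK/ERK. Histone deacetylases remove acetyl groups from histones and other proteins, TSA blocks the zinc-dependent members of the family, and such inhibitors are known for opening silent genes and for stopping the cell cycle.

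The chondrocyte label was checked first. Col2a1, the main collagen of cartilage, reached 5490, 5430 and 5532 with SB202190 and 5455, 6477 and 4971 with TSA, beside a mean of 5700 with DMSO. Here a signal is the MAS5 value of a probe set on a linear scale, and every array had been scaled so that its mean, without the top and bottom 2% of values, was 150. Col9a1 and Col11a1, collagens of the same fibrils, had means of 4497 and 4246 with SB202190 and 3413 and 3554 with TSA. Group means were under 50 in DMSO, SB202190 and TSA for defining genes of several other cell types. These were leukocytes (Ptprc), endothelium (Pecam1, Cdh5), fat cells (Adipoq) and red cells (Hba-a1, Alas2). A mean of 50 was the level a probe set had to reach in some group of the series to be tested. Other markers of these cells did reach it, 8 of 17 for leukocytes, 4 of 12 for endothelium and 4 of 7 for fat cells on the array, and Lyz2 and Cebpa had means of 245.7 and 595.7 with SB202190. Col1a1, a collagen of fibroblasts and bone, was as bright as the cartilage collagens, at means of 3992 with SB202190 and 4032 with TSA. Genes of skeletal muscle were also present, and their values stand beside the results they move with.

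Across the arrays, the correlation of log2 signals was 0.977 to 0.981 among SB202190 arrays and 0.976 to 0.978 among TSA arrays. It was 0.855 to 0.866 between an SB202190 array and a TSA array, 0.965 to 0.974 between SB202190 and DMSO, and 0.842 to 0.854 between TSA and DMSO. These values are a description over 21765 probe sets, and no array stood apart from its group.

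The chondrocytes differed between SB202190 and TSA in the level of most genes. Of 11751 genes tested, 6689 (56.9%) passed an adjusted p of 0.05 in the comparison of SB202190 with TSA, 3374 (28.7%) higher with SB202190 and 3315 (28.2%) higher with TSA. A difference of at least 2-fold was passed by 2092 of them, 1044 higher with SB202190 and 1048 higher with TSA. By probe set, the call was made for 11423 of 21765 (52.5%). The median log2 difference over all genes was 0.004. Every array had been scaled to the same trimmed mean, so a shift of all genes together could not be seen. The p-values come from limma fitted to all probe sets and adjusted by Benjamini-Hochberg, and differences are given as SB202190 minus TSA in log2 signal ± SE. The series states biological replicates, but the labels do not say how they were separated. Changes by fold alone, as ratios of group means over 21018 probe sets that reached 50 in either group, were counted as well. At least 1.4-fold, 2-fold, 5-fold and 7-fold differences were found in 9368, 3528, 513 and 267 probe sets, and at 7-fold 83 were higher with SB202190 and 184 higher with TSA.

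The genes furthest above the TSA level with SB202190 included genes of the extracellular matrix and of growth factor binding. Tk1, which makes thymidine monophosphate for DNA synthesis, had signals of 830.6, 717.9 and 928.4 with SB202190 and 61.62, 51.79 and 43.29 with TSA. The lowest SB202190 array was far above the highest TSA array, and the difference was 3.99 ± 0.15 (adjusted p = 2.77e-11). The arrays of both groups did not overlap in 65.5% of all genes tested, so a gap of this kind was common here. It was also a condition for naming the 12 genes on each side. Aspn, which codes for asporin, a small leucine-rich proteoglycan, gave 735.1, 684.4 and 383.4 with SB202190 and 14.31, 15.62 and 13.72 with TSA. Its TSA arrays lay well under 50, where signals are imprecise, so the 39.8-fold ratio is only a rough size. Ogn, which codes for osteoglycin of the same family, gave 2716, 2684 and 2572 against 272.8, 254.2 and 256.4, a 10.2-fold difference (3.35 ± 0.07, adjusted p = 9.27e-14). Omd, or osteomodulin, had means of 495.7 ± 43.7 and 32.6 ± 5.31 (SD, n = 3 arrays each). Leucine-rich proteoglycan genes thus made up 3 of the 12 genes named on this side. Their DMSO means were 697.8 for Aspn, 455.5 for Omd and 2169 for Ogn, and of these Ogn passed upward with SB202190 against DMSO (0.29, adjusted p = 0.0338).

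Igfbp5, which binds insulin-like growth factors, reached 1488, 1603 and 1474 with SB202190 and 112.1, 114.3 and 115.4 with TSA. It was lower than DMSO (1890, 2301 and 2605) with both inhibitors, but by 1.48-fold with SB202190 and 19.7-fold with TSA. Cytl1, a secreted protein of cartilage, gave 1401, 1580 and 1849 against 97.46, 120.5 and 186.1, a 12.3-fold difference. Scrg1 and Ccn5 were 10.7-fold and 10.1-fold higher with SB202190. The rest of the 12 genes were Klk10, a secreted serine protease, Ctse, an aspartic protease, Actc1, the cardiac actin, and Rcbtb2, and their differences lay between 3.35 and 3.85. Rcbtb2 had 3 probe sets tested, of which 2 pointed the same way.

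Among the 12 genes furthest above the SB202190 level with TSA were Bex1, Bex4 and Uchl1, which are known from neurons. Bex1, a small adaptor protein of neurons, had signals of 456.2, 344.9 and 263.1 with SB202190 and 4895, 5214 and 4297 with TSA. The SB202190 arrays lay within the range of the DMSO arrays, which were 480.5, 262.1 and 183.4. Bex4, of the same family, gave 52.07, 40.4 and 53.5 with SB202190 and 1002, 931.9 and 784.9 with TSA, an 18.7-fold difference (-4.22 ± 0.24, adjusted p = 1.53e-09). Uchl1, a ubiquitin hydrolase abundant in neurons, gave 71.66, 63.27 and 107.4 against 1278, 1241 and 1095. Every TSA array of Bex1, Bex4 and Uchl1 was above every SB202190 array, as the choice of these genes required. Igfbp2 gave 119, 129.7 and 143.2 with SB202190 and 1179, 1756 and 1273 with TSA, so these IGF-binding proteins stood in opposite orders, Igfbp5 higher with SB202190 and Igfbp2 higher with TSA. Of the others, the tight junction genes Cldn9 and F11r, the adhesion gene Cadm4, the hair keratin-associated gene Krtap1-5, Cystm1, Chchd10, Plcxd2 and Lrp11 had TSA means between 502.9 and 1460 and SB202190 means between 10.8 and 99.3.

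**Figure D1:**
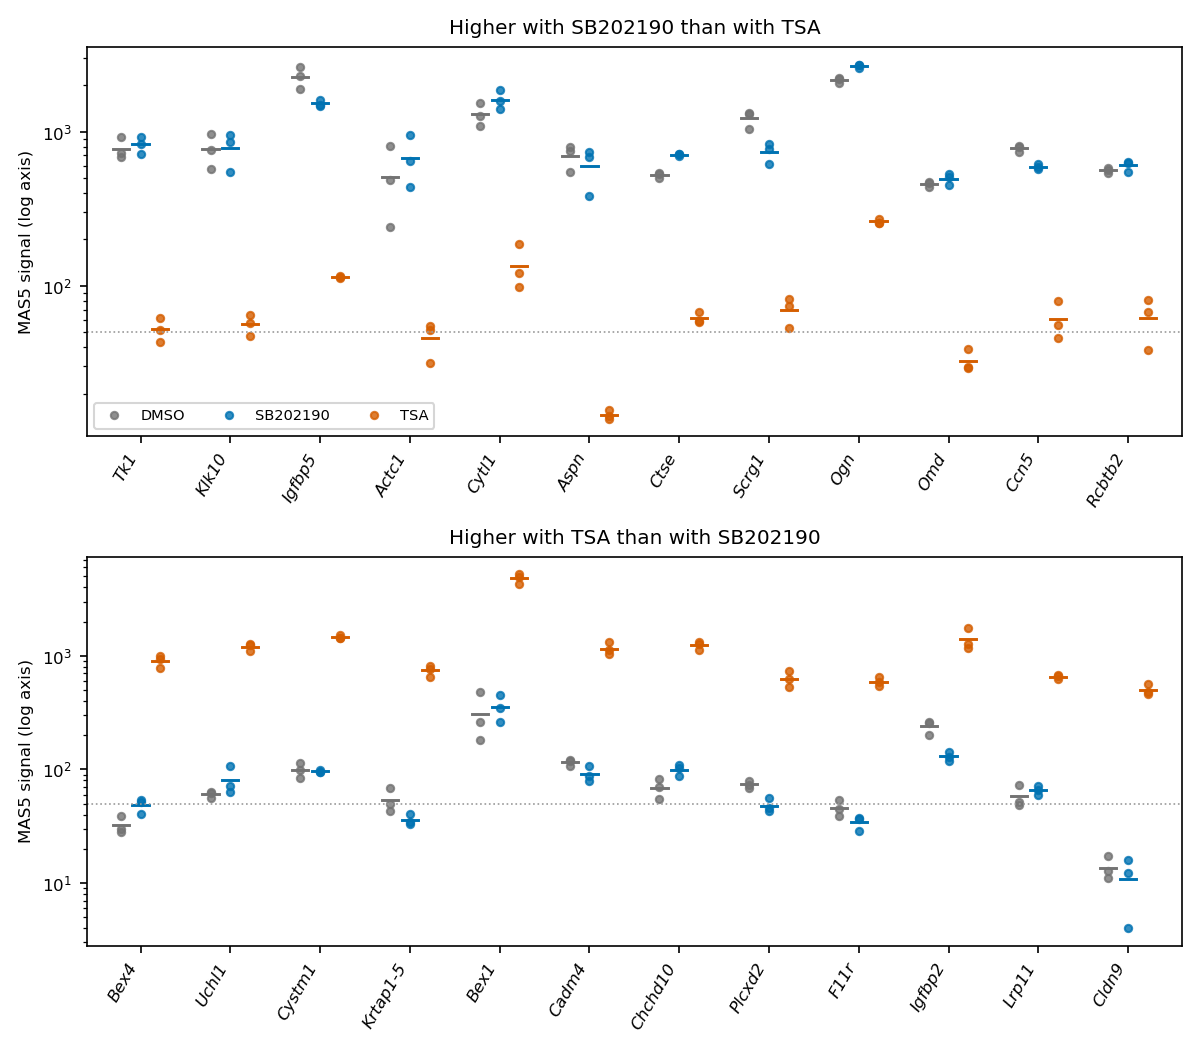
MAS5 signal on a log axis for the 12 genes furthest apart in each direction between SB202190 and TSA, with 1 point per array, a bar at the mean of 3 arrays, and a dotted line at a signal of 50. The SB202190 points lie close to the DMSO points in most genes, and the TSA points lie apart, as in Ogn, where TSA arrays were at 254.2 to 272.8.

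The gene lists were read for how many of their members stood on each side, against 28.7% of all genes higher with SB202190 and 28.2% higher with TSA. Genes of the cell cycle stood on 1 side. In the list of G2 and mitosis, 27 of 27 genes tested were higher with SB202190, with a median difference of 2.01. Ccna2, or cyclin A2, had signals of 860.5, 845.7 and 1058 with SB202190 and 124.8, 144.2 and 148.1 with TSA. Cdk1, the kinase that drives entry into mitosis, gave 1242, 1206 and 1409 against 347.6, 306.2 and 329. In both genes the SB202190 arrays surrounded the DMSO means of 1006 and 1303. In the list of S phase and DNA replication, 25 of 26 genes were higher with SB202190 and none was higher with TSA. Mcm3, a subunit of the replicative helicase, reached 981, 955.5 and 970.3 against 153.1, 148 and 170.1, and Rrm2, a subunit of ribonucleotide reductase, 2639, 2447 and 2740 against 507.5, 419.9 and 471.3. None of the 53 genes of these lists passed the threshold between SB202190 and DMSO, a comparison in which 3.52% of all genes passed.

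The regulators of the cycle were mixed. Of 19 inhibitors, D cyclins and their partners, 12 were higher with SB202190 and 5 higher with TSA. Ccnd1, or cyclin D1, gave 1902, 1925 and 1893 with SB202190 and 608.4, 627.3 and 678.6 with TSA. Rb1, the retinoblastoma gene, went the other way, with 231.2, 258.5 and 239.7 against 796.2, 820.9 and 798.4. Cdkn1a, which codes for the inhibitor p21, gave 735, 1035 and 1282 with SB202190 and 1794, 2019 and 1529 with TSA, a difference of -0.84 ± 0.21 (adjusted p = 0.00297). Neither group of Cdkn1a passed against DMSO, whose mean was 1535.

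The matrix genes of cartilage were largely higher with SB202190, and the fibril collagens differed among themselves. Of 24 cartilage genes, 19 were higher with SB202190 and 1 higher with TSA, and the median difference was 1.57. Acan, the main proteoglycan of cartilage, had signals of 1614, 1852 and 2020 with SB202190 and 406.5, 555.5 and 594.2 with TSA. Matn1, or matrilin 1, gave 1537, 1687 and 2100 against 173.7, 154.2 and 266.8, and Hapln1, the link protein that ties aggrecan to hyaluronan, 1594, 1866 and 1981 against 360.9, 315.7 and 586.2. All arrays of one group were apart from those of the other in these genes. Sox9, the transcription factor needed for cartilage, had means of 654.6 and 296.4 (1.16 ± 0.23, adjusted p = 0.00059). Of the fibril collagens, Col11a2 had means of 1237 and 447.5, a 2.84-fold difference (adjusted p = 0.000288). Col2a1 differed by -0.03 (adjusted p = 0.91), Col11a1 by 0.26 (adjusted p = 0.0794, and 0.0432 with the replicate block), Col9a3 by 0.57 (adjusted p = 0.0584, and 2.08e-05 with the block) and Col9a2 by 0.36 (adjusted p = 0.168). Col9a1 differed by 0.40 (adjusted p = 0.0149), a call lost without TSA replicate 1 (adjusted p = 0.0614). Against DMSO, 22 of the 24 genes fell with TSA and 4 with SB202190 (Prg4, Fmod, Chad and Ucma), beside 28.4% and 1.51% of all genes.

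The exception in this list was Prg4, which codes for lubricin, the lubricant of the joint surface. It had signals of 352.5, 337.9 and 386.2 with DMSO, 89.18, 128.7 and 90.66 with SB202190, and 241.8, 522.6 and 424.6 with TSA. Every SB202190 array lay below every other of these arrays, a gap that the choice of Prg4 as a named gene required. The difference from TSA was -1.90 ± 0.22 (adjusted p = 3.03e-06).

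Of 24 genes of fibrillar collagen and matrix assembly, 13 were higher with SB202190 and 4 higher with TSA (2 without TSA replicate 2). Lum, or lumican, gave 1872, 2042 and 1948 against 588.4, 767.2 and 785.1, and Dcn, or decorin, 1970, 1663 and 2122 against 753.1, 669.7 and 989.4. Col1a1 and Col1a2 differed by -0.01 and -0.06 (adjusted p = 0.984 and 0.78). Among 16 matrix proteases and their inhibitors, 9 were higher with SB202190 and 3 higher with TSA. Mmp13, the collagenase of hypertrophic cartilage, reached 3452, 3269 and 3350 with SB202190 and 412, 420.4 and 1140 with TSA, and Mmp14, which sits on the cell membrane, had means of 1323 and 186.1. Plat, the tissue plasminogen activator, was higher with TSA, at 1070, 1039 and 1250 against 289.2, 307.3 and 403.7. In the list of hypertrophy, 6 of 15 genes were higher with SB202190 and 2 with TSA. Col10a1, the collagen of hypertrophic chondrocytes, gave 196.1, 289.9 and 476.3 against 375.2, 514.8 and 915.7, and this difference of -0.90 did not pass (adjusted p = 0.192) without the replicate block and passed with it (adjusted p = 0.000166).

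Markers of some other cell types stood on the same side as the matrix genes, and those of others did not. Of 14 skeletal muscle genes, 11 were higher with SB202190, and their summed signal was 1923 to 3730 on the SB202190 arrays, 455 to 528 on the TSA arrays and 1343 to 2939 on the DMSO arrays. Myog, a muscle transcription factor, gave 175.5, 90.08 and 70.48 against 18.33, 22.09 and 19.36. Without a filter on low signals, 11 of 18 muscle genes were higher with SB202190. Of 11 fibroblast markers, 8 were higher with SB202190 and 1, Thy1, with TSA, and the summed signal was 22332 to 23375 with SB202190 and 15788 to 19209 with TSA. Only 8 of 17 macrophage and leukocyte markers reached a signal of 50, and 7 of these were higher with SB202190, with summed signals of 915 to 982 and 656 to 730. Lyz2, or lysozyme, gave 243.8, 241.7 and 251.7 against 57.87, 56.84 and 54.01, and Cd68 the reverse, at means of 84.2 and 292.2. The 4 adipocyte markers tested were all higher with SB202190. Of 4 endothelial markers tested, Eng was higher with SB202190 and Egfl7 and Esam with TSA, with summed signals of 709 to 813 and 635 to 683. Of 6 osteoblast markers only Sp7 and of 5 osteoclast markers only Ctsk passed, both higher with SB202190. The part of other cell types in the differences of the matrix genes was not tested.

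Genes of cholesterol synthesis and of protein folding were mostly higher with SB202190. Of 19 genes of cholesterol biosynthesis, 16 were higher with SB202190 and 1 higher with TSA. Cyp51, which removes a methyl group from lanosterol, gave 789.7, 763.9 and 821.2 against 192.7, 191 and 219.8, with a DMSO mean of 807.9. Of 21 chaperones of the endoplasmic reticulum, 12 were higher with SB202190 and none with TSA. Hsp90b1 gave 3370, 3107 and 2920 against 1500, 1436 and 1648, and Hspa5, or BiP, had means of 4450 and 3087. Of 18 ribosomal protein genes, 1 (Rpl14) was higher with SB202190 and none with TSA, and their median of -0.15 turned to 0.01 after quantile normalization.

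The neuronal, immediate early and interferon lists had more members higher with TSA than with SB202190. Of 29 neuronal genes on the array, 18 reached a signal of 50, and 9 of these did so with TSA and in neither of the other groups, so they had to differ. Tested without a filter, 17 of 29 were higher with TSA and 1 was higher with SB202190. Map2, a microtubule protein of dendrites, gave 186.8, 159.4 and 177.9 with SB202190 and 641.9, 683.5 and 810.6 with TSA, and Stmn2, which regulates tubulin, 206, 159.5 and 92.55 against 864.4, 828.6 and 651.2. The SB202190 arrays of Map2 and Stmn2 lay around the DMSO means of 171.6 and 165.1. Of 8 epithelial markers tested, 3 (Krt18, Krt19 and Cdh1) were higher with TSA, 1 (Klk10) with SB202190 and 4 did not pass, and 2 of the 8 reached 50 with TSA alone. With probe sets averaged, 5 of the 8 were higher with TSA and 1 with SB202190, and the median moved from -0.41 to -1.27. Krt19 gave 122.3, 111.4 and 92.85 against 927.7, 1066 and 845.5, and Krt18 had means of 201.4 and 1058.

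Of 26 immediate early genes, which answer within minutes to signals and stress, 13 were higher with TSA and 1, Fosl1, with SB202190. The 13 became 9 without SB202190 replicate 3, 10 without TSA replicate 1 or 2, and 17 without TSA replicate 3. Of the 26, 2 reached 50 with TSA alone. Klf2 gave 314.3, 346.3 and 255.2 with SB202190 and 825.7, 796.9 and 594.4 with TSA. Fos had signals of 1100, 1427 and 336 with SB202190 and 2175, 3033 and 795.4 with TSA, and did not pass (adjusted p = 0.225). With the array number as a replicate block it passed (adjusted p = 0.00665), each TSA array being above the SB202190 array of its number, and 19 of the 26 genes were then higher with TSA. In Fos the array numbered 3 was the lowest of its group under both treatments, and the same held for Nr4a1. Of 18 interferon-stimulated genes tested, 9 were higher with TSA and 2 with SB202190, and 7 of the 18 reached 50 with TSA alone. Tested without a filter, 9 of 22 were higher with TSA. Rsad2, an antiviral enzyme, gave 20.69, 25.68 and 24.27 against 486, 359.4 and 373.3, whereas Ifitm3 gave 3179, 3000 and 2893 against 1191, 1185 and 1169. The members of this list therefore did not share a direction. Of 23 inflammatory genes, 6 were higher with SB202190 and 8 with TSA, and the latter became 13 without SB202190 replicate 1.

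The genes of the targeted pathways were read next. Of 21 components of the p38 pathway, 15 were higher with TSA and 1 with SB202190, and the median was -0.59. Of the 21, 2 (Mapk11 and Mapk12) reached 50 with TSA and in neither of the other groups. Tested without a filter, 12 were higher with TSA and 0 with SB202190. Without 1 SB202190 or TSA array, 11 to 14 were higher with TSA. Mapk14, which codes for p38α, had signals of 618.2, 594.2 and 582.4 with SB202190, 989.8, 1125 and 988.5 with TSA, and a mean of 537.6 with DMSO. The TSA arrays were all above the SB202190 arrays (-0.79 ± 0.12, adjusted p = 5.26e-05), and SB202190 did not pass against DMSO. Mknk1, a kinase downstream of p38 and ERK, gave 198.7, 189.3 and 178.9 against 365.2, 361.1 and 368.3. Dusp1, a phosphatase that switches off p38 and JNK, had means of 853 with DMSO, 1446 with SB202190 and 3579 with TSA. Map2k6, which codes for MKK6, was the gene on the other side. It gave 131.6, 92.13 and 64.19 with DMSO, 222.3, 229.6 and 191.9 with SB202190, and 167.9, 131.8 and 147.2 with TSA. Its difference between the inhibitors of 0.53 ± 0.21 (adjusted p = 0.0419) was lost without SB202190 replicate 1 or 2 or TSA replicate 2 or 3 (adjusted p = 0.085 to 0.134). These are levels of RNA and do not measure the activity of any kinase.

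Of 13 histone deacetylase and sirtuin genes, 4 were higher with SB202190 and 5 higher with TSA, with a median of 0.01. These counts were not firm. Those higher with SB202190 became 2 without SB202190 replicate 1 or 2 or TSA replicate 2 or 3, those higher with TSA became 2 without SB202190 replicate 1 and 3 without TSA replicate 2 or 3, and the median became -0.01 without SB202190 replicate 1 or TSA replicate 1. Hdac7 gave 245, 224.8 and 257.5 with SB202190 and 131.2, 153.1 and 123 with TSA, and Sirt1 had means of 262 and 138.1. Hdac1 was higher with TSA, at 1487, 1397 and 1483 against 1086, 1026 and 1241, a call lost when each array was centred on its median. Hdac3, at means of 523.6 and 520.6, did not pass. Of the histones, H2ax gave 1383, 1185 and 1305 against 421.2, 392.9 and 370.9, and H2aj the reverse, at means of 898.7 and 2172. Among genes responsive to TGF-β and BMP, 15 of 24 were higher with TSA and 4 with SB202190 (2 without SB202190 replicate 1 or 2). Tgfb2 gave 410.5, 378.7 and 436.4 against 1290, 1168 and 1356. Ltbp2, a matrix protein of the latent TGF-β binding protein family, had means of 467.6 and 82.1 in the other order. Igf1 gave 594.3, 618.7 and 450.4 with SB202190 and 93.75, 100.7 and 60.14 with TSA, and Igf2 did not differ past the threshold (adjusted p = 0.751).

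**Figure D2:**
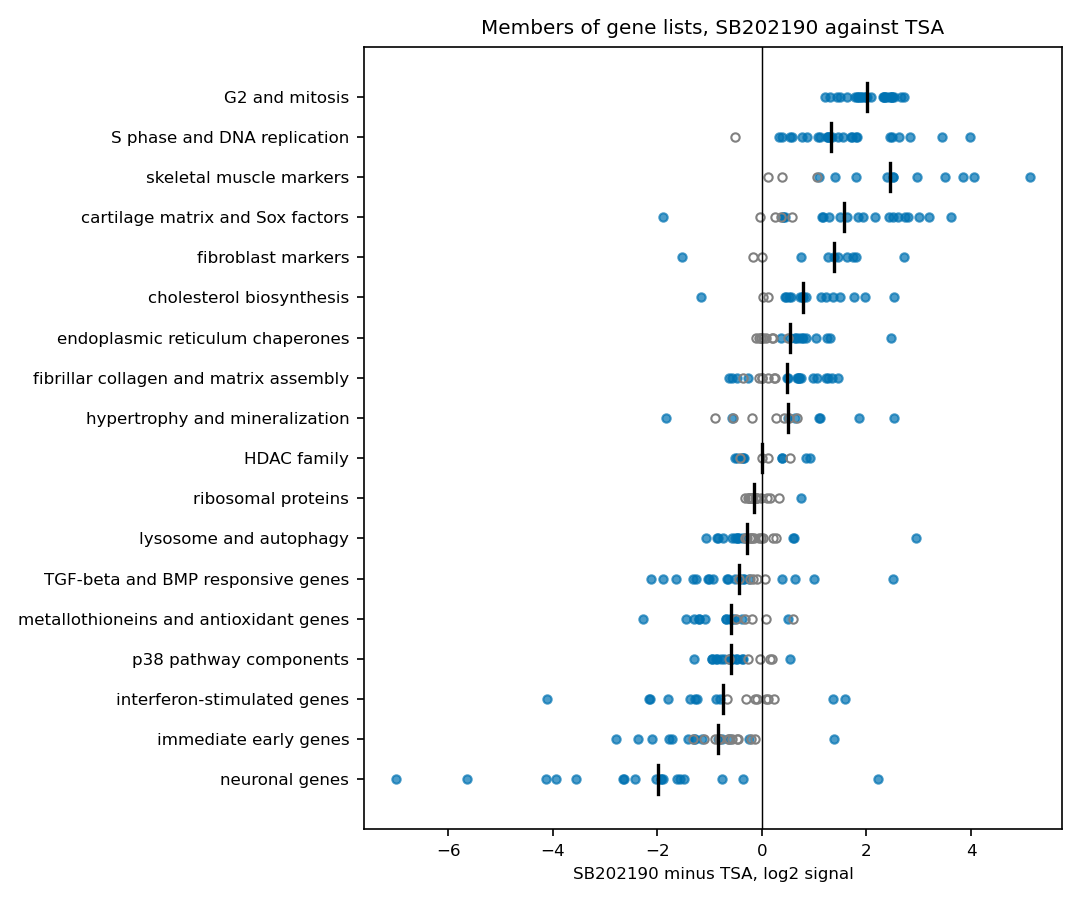
Difference between SB202190 and TSA in log2 signal for each tested member of 18 gene lists, with filled points for genes past the adjusted p of 0.05, open points for the others, and a black bar at the median of each list. The list of G2 and mitosis lies wholly to the right with a median of 2.01, and the p38 pathway mostly to the left with a median of -0.59.

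Each inhibitor was then set against DMSO. The 3 DMSO arrays enter both comparisons, so the sort below is not made of independent parts. SB202190 changed 414 of 11751 genes (3.52%), 236 upward (2.01%) and 178 downward (1.51%), or 619 probe sets (2.84%). TSA changed 6926 genes (58.9%), 3593 upward (30.6%) and 3333 downward (28.4%), or 11914 probe sets (54.7%). Genes past the threshold in both numbered 327. They fell into 158 raised by both (1.34% of genes tested), 112 lowered by both (0.953%), 30 raised by SB202190 and lowered by TSA (0.255%), and 27 lowered by SB202190 and raised by TSA (0.23%). A further 87 genes passed with SB202190 only, 6599 with TSA only, and 4738 with neither. Of the genes that passed with neither, 806 passed between SB202190 and TSA.

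These class sizes depended on single arrays, and the cause was not tested. The count of probe sets past the threshold between SB202190 and DMSO, 619, became 213 without SB202190 replicate 1, 227 without replicate 2, 390 without replicate 3, 285 without DMSO replicate 2 and 321 without DMSO replicate 3. The genes raised by both became 57, 60, 103, 79 and 81 in the same order. The genes lowered by both became 47, 51, 81, 53 and 63, those raised by SB202190 and lowered by TSA 10, 8, 15, 14 and 16, and those lowered by SB202190 and raised by TSA 11, 10, 17, 11 and 15. A median of each array in place of its scaled mean left 58, 36, 9 and 9 genes.

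Within the classes that moved the same way, TSA moved the genes further as a rule. The raised genes had a median log2 change of 0.58 with SB202190 and 0.94 with TSA, and 133 of 158 had the larger change with TSA. Between the inhibitors directly, 88 of the 158 were higher with TSA, 5 higher with SB202190 and 65 did not pass. The lowered genes had medians of -0.64 and -1.22, and 91 of 112 had the larger change with TSA. Directly, 61 of them were higher with SB202190, 4 higher with TSA and 47 did not pass.

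**Figure D3:**
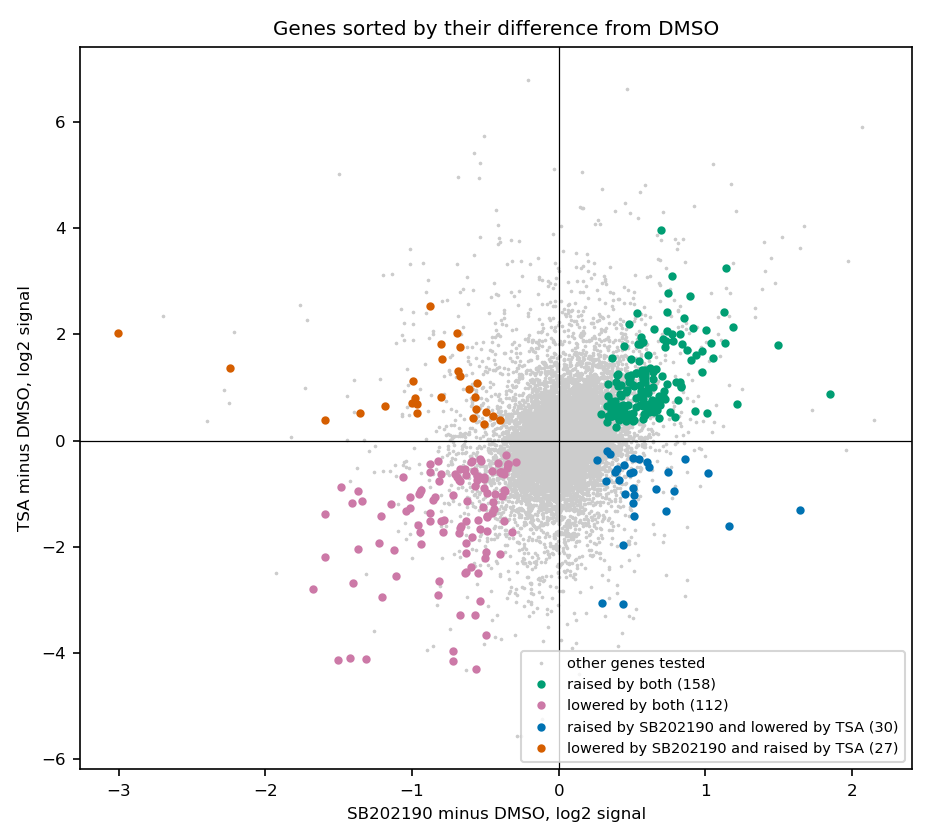
Change from DMSO in log2 signal with SB202190 (horizontal) and with TSA (vertical) for 11751 genes, with the 4 sorted classes in colour and their sizes in the key. The axes have different ranges, since the TSA changes were larger, and both share the 3 DMSO arrays.

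Among the genes raised by both were Mt1, which binds metals, and genes of the defence against oxidants. Of 18 tested members of the list of metallothioneins and antioxidant genes, 8 passed upward and 1 downward with SB202190, and 15 upward and 2 downward with TSA, and the 8 were raised by both. Of all genes tested, 2.01% passed upward and 1.51% downward with SB202190, and 30.6% and 28.4% with TSA. Raised by both were 1.34% of all genes. Mt1, a metallothionein that binds zinc and copper, had signals of 804.2, 1027 and 1122 with DMSO, 2158, 1908 and 2342 with SB202190, and 5838, 5583 and 4432 with TSA. The groups were in this order with no overlap, and the changes were 1.13 ± 0.17 with SB202190 (adjusted p = 0.00293) and 2.43 ± 0.17 with TSA (adjusted p = 1.77e-08). The groups did not overlap in 23.1% of all genes between SB202190 and DMSO, and in 63.3% between TSA and DMSO. Naming by size of change in a class required both inhibitors to lie apart from DMSO, so Mt1 had to show those gaps. Averaged with its dimmer probe set, Mt1 no longer passed with SB202190 (adjusted p = 0.234). Srxn1, or sulfiredoxin, which restores oxidized peroxiredoxins, gave 365.5, 318.1 and 456.1, then 655.2, 706.4 and 771.6, then 1787, 1636 and 1466. Of its 4 probe sets, 3 rose with SB202190, and their mean did not pass.

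Hmox1, the inducible heme oxygenase, gave 375.8, 560 and 646.5 with DMSO, 1162, 979.4 and 1073 with SB202190, and 2173, 1506 and 1040 with TSA. The SB202190 and TSA arrays overlapped and did not differ past the threshold (adjusted p = 0.0854). Its rise with SB202190 (adjusted p = 0.0231) was lost without any 1 SB202190 array or DMSO replicate 1 or 2 (adjusted p = 0.0555 to 0.0963). Blvrb, which reduces biliverdin, the product of heme breakdown, gave 128.1, 99.57 and 134.2, then 235.7, 222.7 and 209.9, then 816, 797.2 and 766.4. Gstm1, a glutathione transferase, gave 437.7, 538.6 and 415.6, then 931.2, 1031 and 714.3, then 1447, 1426 and 1375, with 4 of 4 probe sets raised. The means of Gclc, the catalytic subunit of glutathione synthesis, were 303, 518.1 and 1107 in the order DMSO, SB202190 and TSA, and those of the thioredoxin reductase Txnrd1 were 1304, 1946 and 2896. Gclm and Gsta4 were raised by both as well. The genes named here as raised by both are not all members of the list. Each of Mt1, Srxn1, Gclc, Gsta4, Gstm1, Txnrd1 and Blvrb was higher with TSA than with SB202190 in the direct test.

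The upstream sequence of 2 of these genes is shown because they rose together and carry letters of known response motifs. Both are the 250 bases before the annotated start in RefSeq (build GRCm38.p6), 5′ to 3′ on the plus strand, that of Mt1 at chr8:94178839-94179088 and that of Srxn1 at chr2:152105274-152105523. Capitals mark letters within these 250 bases only, so the matches do not count sites outside them. The letters are TGCACNC or TGCGCNC of the metal response element in Mt1 (1 match) and TGANTCA of the AP-1 site in Srxn1 (2 matches), on either strand.
Mt1: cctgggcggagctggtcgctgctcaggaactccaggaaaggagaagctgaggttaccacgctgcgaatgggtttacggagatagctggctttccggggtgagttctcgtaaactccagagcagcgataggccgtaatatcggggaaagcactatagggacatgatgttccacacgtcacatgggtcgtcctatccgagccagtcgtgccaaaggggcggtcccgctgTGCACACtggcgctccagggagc
Srxn1: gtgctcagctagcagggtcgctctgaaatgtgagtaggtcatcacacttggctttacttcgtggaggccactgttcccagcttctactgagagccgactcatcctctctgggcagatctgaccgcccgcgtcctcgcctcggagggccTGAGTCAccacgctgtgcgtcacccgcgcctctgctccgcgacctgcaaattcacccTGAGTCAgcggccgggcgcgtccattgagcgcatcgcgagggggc

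Over the 300 bases around the start (250 before and 50 after), the shares of promoters with these letters were counted. The letters of the metal and antioxidant response were chosen after the raised genes were seen. The metal response letters occurred in 35.8% of the 179 promoters of the genes raised by both (129 of 158 genes had one) and in 36.0% of the 12255 promoters of all genes tested. The AP-1 letters occurred in 5.03% and 5.08%, and TGACNNNGC, the core of the antioxidant response element, in 14.5% and 14.1%. The genes lowered by both held the GC box GGGCGG in 47.9% of 96 promoters and TATAAA in 15.6%, beside 62.7% and 7.55% of all genes tested. Among genes higher with SB202190 than with TSA, GGGCGG was in 61.3% of 3532 promoters, and among genes lower, in 68.0% of 3464. TGACNNNGC can overlap TGANTCA, and both strands were searched. A match describes letters only, and no test was made.

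Outside the antioxidant list, the genes raised by both and named by size of change included Ddah2, which breaks down methylated arginines. It gave 315.2, 266.8 and 231.6 with DMSO, 555.5, 529.4 and 506.6 with SB202190, and 887.6, 1002 and 727.3 with TSA. Pag1, a membrane adaptor that recruits the kinase Csk, gave 189.2, 137 and 141.8, then 297.9, 285.4 and 327.4, then 370.1, 352.6 and 414.7. Its direct difference of -0.32 (adjusted p = 0.0332) was lost without SB202190 replicate 1 or 2 or TSA replicate 1 or 3 (adjusted p = 0.058 to 0.128). Mknk2, a kinase of the translation factor eIF4E, had means of 699, 1272 and 2271. Much larger rises with TSA were seen in Nnat, an imprinted gene of the brain, at means of 49.6, 79.4 and 759.9, and in Akap12, a scaffold of protein kinase A, at 276.7, 235.5 and 201.2, then 434.7, 405.6 and 372.9, then 2176, 2046 and 1862. Bex2, Gprasp2 and Enpp5 were also raised by both and 3.65-fold to 4.33-fold higher with TSA. Of 25 lysosome and autophagy genes, 3 (Ctsb, Glb1 and Neu1) were raised by both, beside 1.34% of all genes tested. Glb1, the lysosomal β-galactosidase, had means of 220.1, 339.6 and 344.1, and SB202190 and TSA did not differ past the threshold (adjusted p = 0.86).

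Of the 112 genes lowered by both (0.953% of all genes tested), 3 were among the 24 cartilage genes and 3 among the 15 hypertrophy genes. Those named here were chosen by size of change. Ucma, a protein of the resting zone of cartilage, had signals of 773.8, 724.5 and 899.7 with DMSO, 303.7, 312.2 and 343.9 with SB202190, and 38.39, 47.27 and 53.89 with TSA. C1qtnf3, also known as cartducin, gave 957.4, 954.4 and 1041, then 322.7, 382.2 and 335, then 62.93, 45.25 and 62.15. In both genes each group lay apart from the next, the gaps from DMSO being required by their choice. SB202190 was 6.94-fold and 6.16-fold above TSA in them. Penk, the precursor of enkephalins, gave 1421, 1632 and 1491, then 606.8, 677.5 and 660.1, then 389, 365.8 and 437.6. F13a1, a transglutaminase of hypertrophic cartilage, gave 196.7, 232.9 and 203.6, then 71.56, 63.87 and 62.57, then 28.98, 25.3 and 38.72. Cgref1 fell in the same order, with means of 383.6, 178.9 and 65.4.

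Has2, which makes hyaluronan, fell with both, by 1.41 in log2 signal with SB202190 and by 1.18 with TSA. Its signals were 559.9, 451.4 and 461.2 with DMSO, 184.3, 187.2 and 179.1 with SB202190, and 210.8, 223.2 and 213.9 with TSA. The direct difference was -0.23 ± 0.11 (adjusted p = 0.0765), although the 3 SB202190 arrays lay below the 3 TSA arrays. Sod3, the extracellular superoxide dismutase, was the antioxidant gene that fell, from 239.2, 478 and 452 to 104, 152.3 and 118.1 with SB202190 and to 71.81, 100 and 76.35 with TSA. Smpd3, a sphingomyelinase needed for mineralization, had means of 479.7, 189.4 and 118.2. Its fall with SB202190 (adjusted p = 0.0465) was lost without SB202190 replicate 1 or 2, TSA replicate 2 or DMSO replicate 2 or 3 (adjusted p = 0.0613 to 0.189). In another setting the adjusted p of this fall was as low as 1.49e-06. Between the inhibitors Smpd3 differed by 0.67 (adjusted p = 0.117, and 8.93e-06 with the replicate block). Emilin1, an elastic fibre protein, and Angptl7 were lowered by both and 8.95-fold and 9.44-fold higher with SB202190 than with TSA.

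In 9 genes that moved the same way, chosen after their values were seen, SB202190 had the larger change and the direct test passed. Ptch1, the hedgehog receptor and itself a hedgehog target, gave 1283, 1208 and 1370 with DMSO, 644.1, 732.6 and 727.1 with SB202190, and 818, 923.1 and 1114 with TSA. Gli1, another hedgehog target, had means of 110.8, 52.9 and 68.1, fell past the threshold with both, and did not differ between them (adjusted p = 0.131). Rgcc, a regulator of the cell cycle, gave 705.4, 602.7 and 674.8, then 247.7, 244.1 and 276.8, then 357.8, 301.9 and 363. The SB202190 arrays were the lowest of the 3 groups in Ptch1 and Rgcc. Usp11 rose, from 222.6, 231 and 187.4 to 407.3, 430.6 and 380.6 with SB202190 and to 303.1, 321.4 and 308.8 with TSA. The other genes were Epas1, which codes for HIF-2α, Dzip1, Map2k6, Car3, Hpgd and Trp63. In these 6 the direct call was lost when 1 array was left out: for Epas1 SB202190 replicate 2 or TSA replicate 1 or 2 (adjusted p = 0.0797 to 0.14), for Dzip1 SB202190 replicate 2 (0.0556), for Hpgd SB202190 replicate 1 or TSA replicate 3 (0.0606 to 0.0812), for Car3 TSA replicate 1 (0.0672), for Trp63 any SB202190 array or TSA replicate 1 or 2 (0.0617 to 0.16), and for Map2k6 the arrays given above. The change with TSA against DMSO was lost as well for Hpgd without TSA replicate 1 or DMSO replicate 1 or 2 (0.0571 to 0.133), for Map2k6 without DMSO replicate 3 (0.0607) and for Car3 without TSA replicate 3 or DMSO replicate 3 (0.11 to 0.12). With probe sets averaged, the direct call was lost for Epas1 and Car3, and the call of TSA against DMSO for Ptch1, Dzip1 and Car3.

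**Figure D4:**
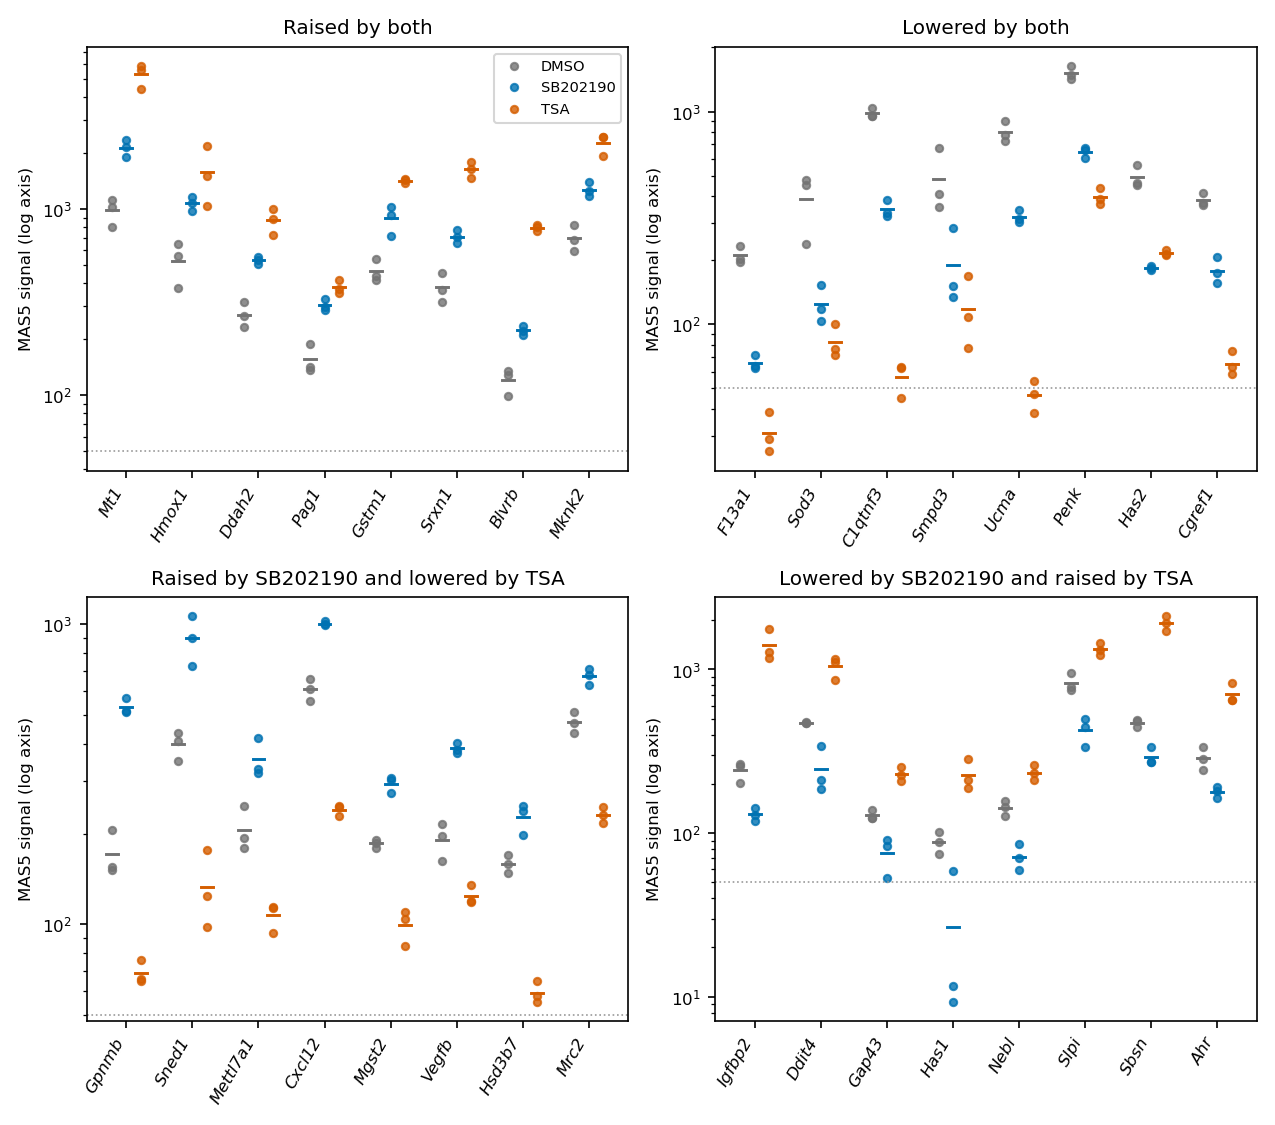
MAS5 signal on a log axis for 8 genes of each sorted class, with 1 point per array, a bar at the mean of 3 arrays and a dotted line at a signal of 50. In Has2 the SB202190 and TSA points lie close together under DMSO, and in Gpnmb they lie on opposite sides of DMSO.

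Genes moved in opposite ways numbered 57, and in all of them the direct test passed, which the sort makes likely by its construction. Raised by SB202190 and lowered by TSA was Gpnmb, a membrane glycoprotein of lysosomes known from osteoblasts and macrophages. It had signals of 152, 155.4 and 206 with DMSO, 514.9, 508.8 and 569.7 with SB202190, and 65.61, 76.04 and 64.94 with TSA. The 3 groups lay apart, as its choice required. The change was 1.65 ± 0.14 (adjusted p = 1.39e-05) with SB202190 and -1.30 ± 0.14 (adjusted p = 1.44e-06) with TSA. Cxcl12, a chemokine that guides blood stem cells and leukocytes, gave 659, 608 and 554.1, then 1003, 1021 and 989.9, then 248.1, 229.2 and 245.9. Sned1, a matrix protein, gave 408.9, 435.4 and 350.8, then 902.6, 1061 and 725.5, then 98.22, 177.5 and 124.3. Vegfb, of the VEGF family, had means of 191.6, 385.4 and 124.4, and Mgst2, a microsomal glutathione transferase, of 186.2, 294.5 and 99.4.

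Mettl7a1, Hsd3b7, an enzyme of bile acid synthesis, and Mrc2, a receptor that takes up collagen, had means of 355.5, 228.1 and 672.6 with SB202190 and of 107.2, 59.3 and 231 with TSA. Their rise with SB202190 was lost when 1 array was left out. This was SB202190 replicate 2 for Mettl7a1 (adjusted p = 0.0533), SB202190 replicate 2 or 3 or DMSO replicate 1 or 2 for Hsd3b7 (0.0726 to 0.125), and any SB202190 array or DMSO replicate 1 or 2 for Mrc2 (0.0546 to 0.108). Averaged over its 2 probe sets, Mrc2 no longer passed with SB202190.

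Lowered by SB202190 and raised by TSA was Slpi, an inhibitor of leukocyte proteases. It gave 749.2, 949.9 and 782 with DMSO, 501.3, 448.2 and 334.5 with SB202190, and 1231, 1313 and 1447 with TSA. Nebl, an actin-binding protein, gave 157.6, 126.4 and 144.6, then 85.43, 70.18 and 59.82, then 210.5, 259.8 and 233.3. Wif1, a secreted inhibitor of Wnt proteins, had means of 251.2, 83.2 and 337.4, and Tnfsf11, which codes for RANKL, the factor that drives osteoclast formation, of 96.9, 43.3 and 148.8. The 3 groups of Slpi and Nebl lay apart in the same order, as their choice required. Inhba, the activin subunit, and Skil, a brake on TGF-β signalling, were in this class as well, with means of 131.8 and 291.7 with SB202190 and of 493.4 and 591.4 with TSA.

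In the rest of the named genes of this class the SB202190 part was less firm. Ddit4, which restrains mTORC1, gave 468.9, 480.1 and 472.4 with DMSO, 186.4, 211 and 342.1 with SB202190, and 1154, 1115 and 864.4 with TSA, and its fall with SB202190 (adjusted p = 0.0131) was lost without SB202190 replicate 1 or 2 (0.0676 to 0.0686). Ahr, the receptor of dioxin, gave 284, 336.9 and 243.4, then 180.8, 190.5 and 163.1, then 654.9, 828.3 and 650, and its fall was lost without any SB202190 array or DMSO replicate 2 (0.0533 to 0.092). The fall of Igfbp2 was lost without any SB202190 array or DMSO replicate 2 or 3 (0.0652 to 0.142), that of Gap43 without SB202190 replicate 1 or 2 or any DMSO array (0.0649 to 0.136), and that of Sbsn without SB202190 replicate 2 or 3 or DMSO replicate 2 (0.065 to 0.0874). Has1, another hyaluronan synthase, gave 74.79, 88.1 and 101.5, then 58.56, 11.63 and 9.344, then 211.9, 283.9 and 187.6. Its SB202190 arrays ranged from 9.344 to 58.56, and its calls against DMSO were lost without any 1 DMSO or TSA array (0.0651 to 0.133 for TSA) and, for SB202190, also without SB202190 replicate 2 or 3 (0.0525 to 0.173). The difference of Has1 between the inhibitors was -3.60 ± 0.55 (adjusted p = 5.59e-05).

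Of the 87 genes that passed against DMSO with SB202190 and not with TSA, 80 differed between the inhibitors in the direct test, beside 56.9% of all genes. The direct test uses the same SB202190 arrays as the sort, which makes this call likely by construction. Those named here, 6 in each direction with Prg4 among them, were chosen after their values were seen. Their choice required that the SB202190 arrays overlap neither the DMSO nor the TSA arrays. Apart from Prg4, Ndnf, a secreted neurotrophic factor, gave 323.6, 312.3 and 335 with DMSO, 142.7, 190.1 and 191.2 with SB202190, and 305.9, 384.3 and 309.2 with TSA. Ddah1, of the same enzyme family as Ddah2, gave 665.8, 498.8 and 739.4, then 342.8, 303.1 and 415.1, then 693.2, 609.2 and 861.2, so Ddah1 and Ddah2 moved in opposite directions with SB202190. The fall of Ddah1 (adjusted p = 0.016) was lost without SB202190 replicate 1 or 2 or DMSO replicate 3 (0.0634 to 0.0826). Col8a2, Rrp9 and Ddx49 had SB202190 means of 185.3, 137.8 and 139.2 and TSA means of 331.2, 231.8 and 236.1. The fall of Col8a2 was lost without SB202190 replicate 2 or 3 or DMSO replicate 1 or 2 (0.0934 to 0.12), that of Rrp9 without SB202190 replicate 1 or 2 or DMSO replicate 2 or 3 (0.0553 to 0.129), and that of Ddx49 without SB202190 replicate 1 or 2 or DMSO replicate 1 or 3 (0.0837 to 0.168) and with probe sets averaged.

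Mgst1, a microsomal glutathione transferase, was raised, with 657.4, 575.7 and 459.2 with DMSO, 1185, 1168 and 995.9 with SB202190, and 449.5, 433 and 489.3 with TSA. Cbr3, a carbonyl reductase, gave 185.4, 165.8 and 136.3, then 283.8, 353.4 and 262, then 183.9, 201.6 and 157. Adamts9, a protease that cuts aggrecan and versican, gave 216.8, 345.1 and 216.4, then 448.2, 551.6 and 445.1, then 215.1, 268.3 and 196.4. In these genes the SB202190 arrays stood above all DMSO and TSA arrays, as their choice required. Averaged over its 2 probe sets, Adamts9 no longer passed in either comparison. Pycard, the adaptor of the inflammasome, Ttc7b and Stk32b had SB202190 means of 267.5, 236.8 and 200.7 and TSA means of 150.1, 129.5 and 132.5. The rises of Pycard and Stk32b against DMSO were lost without SB202190 replicate 1 (0.0516 and 0.0565). The probe sets of Stk32b pointed in opposite directions, and their mean passed in neither comparison.

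**Figure D5:**
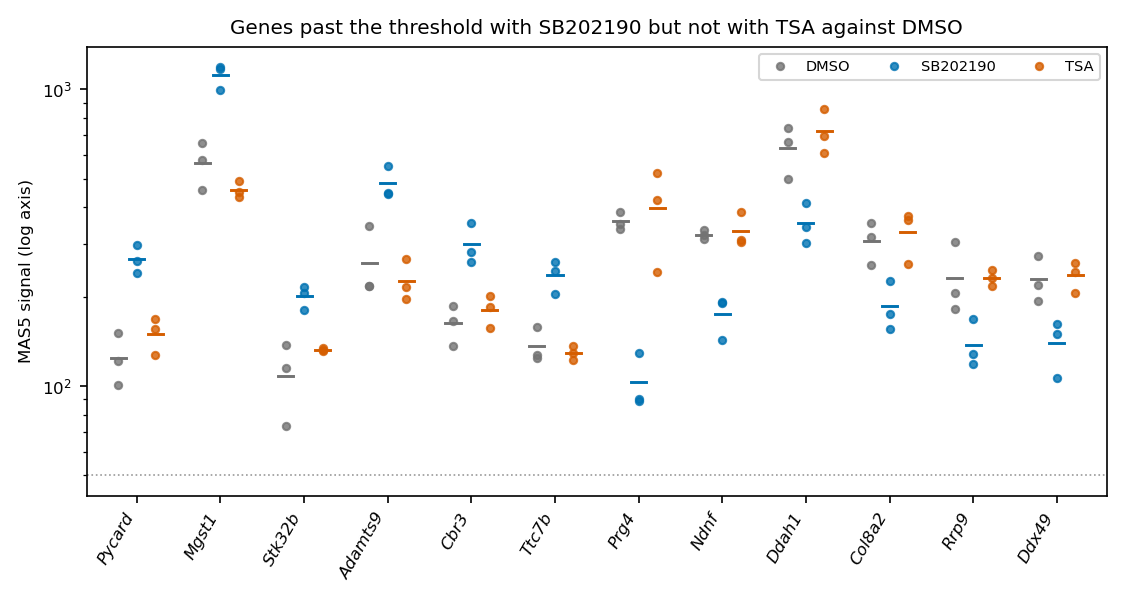
MAS5 signal on a log axis for 12 genes that passed against DMSO with SB202190 and not with TSA, with 1 point per array, a bar at the mean of 3 arrays and a dotted line at a signal of 50. In Mgst1 the SB202190 points lie above both other groups, and in Prg4 below both, as the choice of these genes required.

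The study singled out 4 genes from the comparison of LY294002 with DMSO and from growth plate zones, a choice that used the DMSO arrays and not those of SB202190 or TSA. F13a1 is given above. Adamts5, an aggrecanase, reached 566.4, 523.5 and 482.2 with SB202190 and 150.6, 181.7 and 203.2 with TSA, a 2.95-fold difference (adjusted p = 1.93e-08). Nr4a1, an orphan nuclear receptor, gave 322.3, 357.5 and 81.04 against 1060, 1044 and 343.2. Its groups overlapped, and its difference of -1.78 ± 0.61 (adjusted p = 0.022) was lost without SB202190 replicate 3 or TSA replicate 1 or 2 (0.0829 to 0.132). Phlda2, a growth regulator of the placenta, gave 45.75, 56.49 and 93.57 against 49.81, 50.69 and 55.24 and did not pass (adjusted p = 0.363).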

How the data were processed

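The authors deposited signal intensity values, made with MAS5 from Affymetrix Mouse Genome 430 2.0 arrays and scaled to a trimmed mean of 150 on each array. Detection calls were not used, so signals under about 50 are imprecise, and 3 arrays a group limit the precision.

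Probe sets with a group mean of at least 50 in 1 of 5 groups were tested, 21765 of 45101. Of these, 19760 had 1 gene symbol. The 11751 genes were each read from the probe set with the highest mean log2 signal. Signals (floor 1) were log2 transformed and fitted by group on 15 arrays by limma (3.58.1, R 4.3.3) with a variance trend. Two-sided p-values were adjusted by Benjamini-Hochberg over all probe sets at 0.05. On simulated data with known changes, the fit was tested first.

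Genes named were those furthest apart in each comparison or class with no overlap of arrays, a mean of at least 200 and signals under 50 set to 50, the 4 study genes, cell type markers, and up to 6 members of each list. Members and lists were chosen with earlier results of these data known. Not every gene of the rule is printed. Groups of genes added later are marked in the text.

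Same-numbered SB202190 and TSA arrays deviated together (r = 0.14, 0.14 and 0.19), so a replicate block was tried as well as other scalings, filters and left-out arrays. Averaging of probe sets was added after the data were seen. Promoters were from RefSeq, found for 9517 of 11751 genes.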

Additional observations from a re-analysis of the deposited data

How the results depend on the processing

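Between SB202190 and TSA the number of probe sets past the threshold, 11423, stayed between 8560 and 12287 in all settings tried and was 12287 with the replicate block, which ended no call of a named gene in this comparison and added 11 among 40 that had not passed. Without single arrays it was 10132 to 10509, and TSA against DMSO gave 10812 to 11867. SB202190 against DMSO, 619, became 210 with each array centred on its median, 410 with no filter, 335 with the 3 groups alone, 1224 with the replicate block and 213 to 599 without 1 array. In the same order the genes raised by both, 158, became 58, 105, 94, 296 and 57 to 165. The genes lowered by both, 112, became 36 when centred, 59 with the 3 groups alone, 215 with the block and 47 to 123 without 1 array. Those raised by SB202190 and lowered by TSA, 30, became 9 when centred, 18 with no filter, 16 with the 3 groups alone, 77 with the block and 8 to 33 without 1 array, and those lowered by SB202190 and raised by TSA, 27, became 9, 16 with no filter, 55 with the block and 10 to 21. The causes were not tested. Of the main genes, 57 of the 58 and 35 of the 36 same-way genes found after centring were among those reported. The 2-fold count was 7931 with no filter, where more probe sets were compared, and 3504 to 3676 without 1 array. Same-numbered arrays of SB202190 and DMSO correlated at 0.13, 0.09 and 0.23, and each correlated best with its own number, as with SB202190 and TSA. Those of TSA and DMSO correlated at 0.10, 0.17 and 0.05, and arrays 1 and 3 did not correlate best with their own number. Some of these values were under 0.10, for SB202190 and DMSO only that of 0.09. The main fit used the array number to pair no groups, SB202190 and TSA included, and the block was an alternative setting. Whether SB202190 and DMSO arrays are paired stays unsettled. The block ended the call of Has1 with TSA against DMSO and no other call of a named gene. Signals near background and 3 arrays a group limit the small differences from DMSO.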

Other observations

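The list of glycolysis and hypoxia was not described above. Of 22 genes tested, 11 were higher with TSA and 5 higher with SB202190. Slc2a3, a glucose transporter, gave 113.1, 109.5 and 87.18 with SB202190 and 624.2, 601.9 and 581.1 with TSA, a difference of -2.55 ± 0.14 (adjusted p = 1.12e-09 in limma). Pfkp and Pfkl, which code for isoforms of phosphofructokinase, stood in opposite orders. Pfkp had means of 291.3 with SB202190 and 924.8 with TSA, and Pfkl of 768 and 305.8.

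Among 19 genes of the Wnt pathway, 8 were higher with SB202190 and 6 higher with TSA. Sfrp2, a secreted Wnt inhibitor, gave 631.8, 515.6 and 493 with SB202190 and 143.1, 111.2 and 127.1 with TSA, whereas Axin2, a target of β-catenin, gave 80.39, 99.92 and 127.1 against 321.7, 374.5 and 351.1. Of 17 p53 targets, 8 were higher with TSA and 1 with SB202190, among them Pmaip1, which codes for the death factor NOXA, at means of 45 and 285. Of 13 smooth muscle genes, 7 were higher with SB202190 and 2 with TSA, and Myl9 gave 737.1, 851.2 and 848.6 against 231.9, 262.6 and 235.9. Of the adipocyte markers, Cebpa gave 636.6, 616.8 and 533.8 against 130.6, 102.3 and 102.5. Of the 22 genes of acetyltransferases and deacetylase complexes, 10 were higher with SB202190 and 3 with TSA, and Mbd3 had means of 351.7 and 114.2.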
